A study of Arabidopsis thaliana with 24 samples.

Results

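Transcripts of hbi-q mutant seedlings of Arabidopsis thaliana were compared between nitrate and mock treatment by mRNA sequencing. The comparison used 6 of the 24 libraries of the study, 3 from hbi-q seedlings given 10 mM KNO3 for 3 h and 3 from hbi-q seedlings given mock, which table names call KCl. Before treatment the seedlings were 7 days on medium holding 7 mM KNO3, followed by nitrogen-free medium for 2 days. The same pair of treatments in wild-type Col-0, with 3 libraries each, served as the reference. The labels call hbi-q a mutant and give Col-0 as its ecotype background, but they name neither the genes mutated in it nor their alleles. The tissue is labelled seedlings, so shoot and root were read together, and in such bulk samples fewer cells of a type cannot be told apart from less RNA per cell. Every one of the 22954 genes in the authors' deposited table for the mutant was included.

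Plants take up nitrate through NRT1/NPF and NRT2 transporters, reduce it to nitrite with nitrate reductase and to ammonium with nitrite reductase, and bind the ammonium into glutamine and glutamate. Nitrate is also a signal, and NLP transcription factors switch on many of these genes within minutes of its arrival. HBI1 and its relatives are bHLH transcription factors best known for promoting cell elongation downstream of brassinosteroid and for restraining immune responses. The series title places them between nitrate signalling and reactive oxygen species, and the comparison asks how the hbi-q mutant answers nitrate.

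The authors' deposited tables give for each gene a base mean, the average of counts divided by size factors, with a log2 fold change of KNO3 over mock, its standard error and an adjusted p-value. Values of single libraries were not analysed here, so each gene is described by its base mean and by its fold changes in hbi-q and wild type. Base means summed to 2.01e+07 normalized counts, 16507 genes had a base mean of at least 100, and how deeply each library was sequenced is unknown. The median standard error in hbi-q was 0.0960 on the log2 scale for those genes in the authors' deposited table and 1.08 for the 2417 genes under 10. Responses are log2 fold changes of KNO3 over mock unless written as folds, and ± gives the standard error. A gene was called, and is said to have risen or fallen, at an adjusted p under 0.05 with at least a 2-fold change. Whether hbi-q and wild type responded unequally was tested per gene on the difference of the log2 fold changes, hbi-q minus wild type, divided by its combined standard error, with Benjamini-Hochberg adjustment over all 22954 genes and a call at an adjusted p under 0.05. The labels give biological replicates without saying whether plants were pooled, so p-values rest on spread between libraries. Which libraries entered the authors' fit, and so set that spread, is not known. For the tissue label, 13 root and 7 shoot marker genes were looked up. All were listed, 11 and 7 of them at a base mean of at least 100, as were 16507 of all 22954 genes. Such presence says little about the tissue.

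In hbi-q 2313 genes rose with nitrate, 10.1% of all genes, and 1390 fell, 6.06%, in the authors' deposited table. In wild type 2167 rose, 9.44%, and 1264 fell, 5.51%, by the same rule in the authors' deposited table. Counts of called members in the gene lists are to be read beside these shares. Changes of at least 8-fold were found for 201 genes that rose and 96 that fell. The highest-ranking rises among genes with a base mean of at least 100 were those of AT5G10210 (10.55 ± 1.18), AT3G46880 (10.46 ± 1.19) and AT1G68238 (10.28 ± 1.18) in the authors' deposited table. The standard errors of these folds are many times the median, and their size rests on the fit because the genes are close to 0 in mock. The other 7 of the 10 highest were the glutaredoxin AT4G15680, the transporter NRT2.2, the myb-like factor AT3G25790 and the LOB-domain repressor LBD39, whose values are given with their groups, and the leucine-zipper gene AT1G68880 (8.67 ± 1.03), the oxygenase family gene AT2G48080 (7.67 ± 0.22) and the amino acid exporter family gene UMAMIT35 (7.42 ± 0.66) per the authors' deposited table. At the low end stood AT5G36150, annotated as a triterpene synthase (-6.12 ± 0.36), its chromosomal neighbours CYP716A2 (-4.51 ± 0.13) and AT5G36130 (-4.34 ± 0.15), both cytochrome P450 genes, and the Rossmann-fold family gene AT1G64590 (-4.98 ± 0.12) in the authors' deposited table. The light-stress protein gene ELIP1 fell 29.3-fold and the anthocyanin regulator MYB90 24.8-fold in the authors' deposited table. No difference from wild type was called for either, and for wild type the authors' deposited table gave -4.83 ± 0.09 for ELIP1 and -4.64 ± 0.10 for MYB90. The nudix hydrolase gene NUDT24 (-4.62 ± 0.26), the acyltransferase family gene AT5G67430 (-4.13 ± 0.19) and AT2G25625 (-4.88 ± 0.20) were also among the 10 lowest in the authors' deposited table. The seed albumin gene SESA3 also ranked among the 10 lowest, at -5.81 ± 2.00 (adjusted p = 0.00742) in the authors' deposited table.

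**Figure D1:**
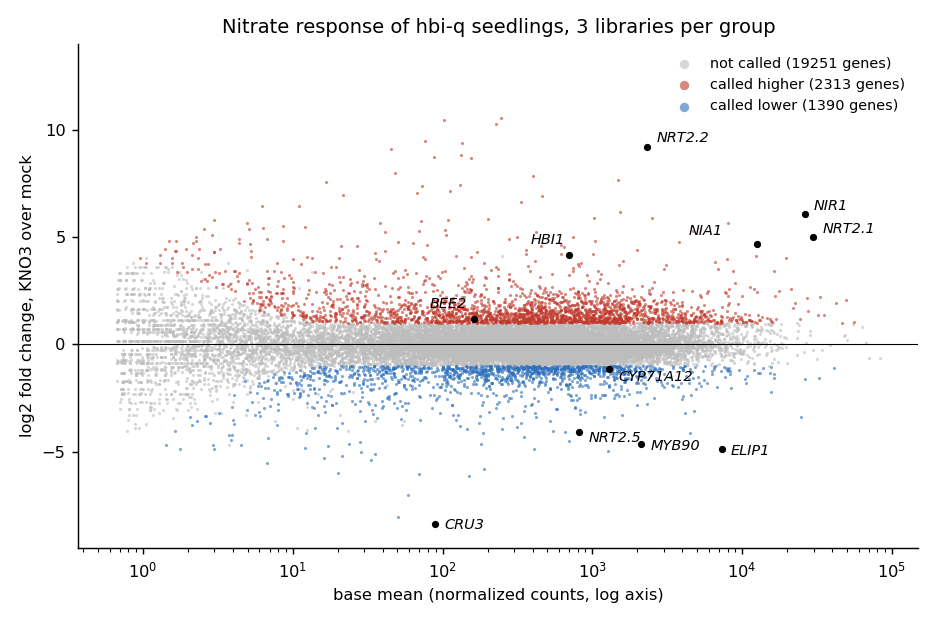
Response of each of the 22954 genes in hbi-q, with the base mean on a log x axis and the log2 fold change of KNO3 over mock on the y axis. Red points are the 2313 genes that rose and blue points the 1390 that fell, black points are named genes, and the spread of uncalled genes widens below a base mean of 10.

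Reads of HBI and BEE genes were counted in hbi-q too, and their responses were as follows. HBI1, the factor after which the family is named, had a base mean of 699 and rose 18.0-fold in hbi-q against 39.5-fold in wild type in the authors' deposited table. BEE2 rose 2.25-fold against 7.38-fold in the authors' deposited table, while BEE1 rose 6.23-fold against 6.19-fold with no called difference (0.01 ± 0.21, adjusted p = 0.991). The differences were -1.14 ± 0.21 (adjusted p = 3.96e-06) for HBI1 and -1.71 ± 0.39 (adjusted p = 6.94e-04) for BEE2. The bHLH gene AT5G50915 rose by 2.46 ± 0.31 in hbi-q and 2.09 ± 0.28 in wild type per the authors' deposited tables. BEE3 stood at 0.95 ± 0.14, CIB2 at -0.53 ± 0.10, CIB3 at 0.09 ± 0.10, CIB4 at -0.59 ± 0.08 and AT1G68920 at -0.10 ± 0.07 in hbi-q, none of them called in the authors' deposited table. CIB5, which encodes a cryptochrome-interacting bHLH protein, stood at -0.40 ± 0.13 in hbi-q and fell by 1.07 ± 0.14 in wild type in the authors' deposited table, a difference of 0.67 ± 0.19 (adjusted p = 0.0126) that did not pass with the robust SD. CES had a base mean near 0.991 and was not called (3.00 ± 1.91) in the authors' deposited table. BPE, a bHLH gene that limits petal size, fell 6.19-fold in wild type and stood at -0.39 ± 0.07 in hbi-q in the authors' deposited table. Its difference of 2.24 ± 0.15 (adjusted p = 1.59e-49) was the second highest test score among differences of at least 2-fold. Of the 12 listed genes 4 rose, beside 10.1% of all genes, and 0 fell in hbi-q, and in wild type 4 rose and 2 fell, in the authors' deposited table. The HLH partners and brassinosteroid regulators held 18 listed genes, of which 0 rose and 0 fell in either genotype. By an adjusted p under 0.05 without the fold threshold 8 changed in hbi-q, and no difference from wild type was called, with 1 at an unadjusted p under 0.05. Their median response was 0.12 in hbi-q in the authors' deposited table, with the HLH repressor IBH1 at -0.88 ± 0.11 and the brassinosteroid factor BZR1 at -0.78 ± 0.07.

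The nitrate uptake and reduction genes responded at both ends of the scale in hbi-q. Of 23 nitrate transport genes 7 rose and 1 fell, beside 10.1% and 6.06% of all genes, with a list median response of -0.06 in the authors' deposited table. NRT2.1, the main high-affinity root transporter, had a base mean of 29816 and rose 31.7-fold in hbi-q against 9.96-fold in wild type in the authors' deposited table, a difference of 1.67 ± 0.10 (adjusted p = 4.99e-56). Its near-identical neighbour NRT2.2 rose by 9.22 ± 0.31 against 7.85 ± 0.20 in the authors' deposited table, and reads shared by the pair could not be separated here. The partner protein gene NRT3.1 rose by 2.66 ± 0.07, the dual-affinity transporter and nitrate sensor gene NPF6.3 by 1.40 ± 0.07 and the vacuolar channel gene CLCA by 1.49 ± 0.09 in hbi-q, per the authors' deposited table. NRT2.5, the transporter of nitrogen-starved plants, fell 16.8-fold in hbi-q and 8.09-fold in wild type in the authors' deposited table. The fall of NRT2.5 was deeper in hbi-q, with a difference of -1.06 ± 0.16 (adjusted p = 9.92e-09). Another starvation transporter, NRT2.4, fell in wild type (-1.12 ± 0.13) and stood at -0.44 ± 0.14 in hbi-q in the authors' deposited table, a difference of 0.68 ± 0.19 (adjusted p = 0.00918). NPF7.3, which loads nitrate into the xylem, differed by -0.36 ± 0.11 (adjusted p = 0.0267) and was called in neither genotype.

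Of 11 genes for nitrate reduction and its cofactors 5 rose and 0 fell, with a median response of 0.91 in the authors' deposited table. The nitrite reductase gene NIR1 rose 67.6-fold, the nitrate reductase genes NIA1 and NIA2 25.6-fold and 4.42-fold and the sirohaem gene UPM1 15.8-fold by the authors' deposited table for hbi-q. NIR1 (0.63 ± 0.08, adjusted p = 1.48e-13) and NIA1 (1.18 ± 0.11, adjusted p = 4.55e-25) were the members whose response was higher in hbi-q than in wild type by the test of the difference, while those of NIA2 (0.26 ± 0.10, adjusted p = 0.126) and UPM1 (0.25 ± 0.10, adjusted p = 0.135) did not pass. Differences above and below 0 were called for 2.13% and 3.49% of all genes. In the transport list 3 were called above and 3 below 0, and with the test score divided by its robust SD, which is 1.295 over all genes, NRT2.1 and NRT2.5 remained and NRT2.2, NRT3.1, NRT2.4 and NPF7.3 did not.

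Most genes that feed reductant and carbon to nitrate assimilation rose. Of 19 members 11 rose and 0 fell, with a median response of 1.49 in the authors' deposited table. G6PD3, a plastid enzyme of the oxidative pentose phosphate pathway, rose 38.6-fold, the root ferredoxin reductase genes RFNR2 and RFNR1 17.5-fold and 11.2-fold, the ferredoxin gene FD3 5.21-fold and the transketolase gene TKL1 4.64-fold in the authors' deposited table. The test of the difference called 0 members in either direction, and 4 had an unadjusted p under 0.05. Ammonium and amide genes split, with 5 of 20 higher, 5 lower and a median response of -0.09 in the authors' deposited table. The asparagine synthetase gene ASN2 rose 14.2-fold, the NADH glutamate synthase gene GLT1 10.8-fold and the plastid glutamine synthetase gene GLN2 2.69-fold, whereas the cytosolic glutamine synthetase genes GLN1;4, GLN1;1 and GLN1;3 fell 9.22-fold, 3.01-fold and 2.03-fold by the authors' deposited table for hbi-q. The falls of GLN1;4 (-0.48 ± 0.09, adjusted p = 1.76e-05) and GLN1;1 (-0.31 ± 0.08, adjusted p = 0.00391) were deeper than in wild type, the second of them not with the robust SD. The ammonium transporter gene AMT1;1 fell by 1.36 ± 0.11 in hbi-q and also fell by 1.05 ± 0.11 in wild type in the authors' deposited table.

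Among regulators of the nitrate response, rises outnumbered falls in hbi-q. Of 41 members 18 rose and 3 fell, with a median response of 0.68 against 0.68 in wild type in the authors' deposited table. The LOB-domain genes LBD39, LBD38 and LBD37, repressors of nitrogen-responsive genes, rose by 7.83 ± 0.46, 6.18 ± 0.15 and 5.89 ± 0.11 per the authors' deposited table. The myb-like factor AT3G25790 rose by 8.84 ± 1.03, and the related AT1G13300, AT1G25550 and AT1G68670 rose by 4.22 ± 0.13, 3.80 ± 0.10 and 3.63 ± 0.14 per the authors' deposited table. BT1, BT2 and BT5, which encode BTB/TAZ adaptor proteins, rose 32.2-fold, 37.1-fold and 7.48-fold, and the bZIP genes TGA1 and TGA4 3.90-fold and 2.33-fold in the authors' deposited table. Among the NLP genes, which encode nitrate-responsive transcription factors, NLP3 rose by 2.57 ± 0.10 in hbi-q and 1.95 ± 0.10 in wild type in the authors' deposited table, a difference of 0.62 ± 0.14 (adjusted p = 8.37e-04). NLP9, NLP8 and NLP5 fell, with responses of -3.65 ± 0.15, -2.59 ± 0.10 and -1.57 ± 0.08 in hbi-q in the authors' deposited table, and no difference from wild type was called for them. CC-type glutaredoxins, small redox proteins found in land plants, rose in 10 of 17 cases and fell in 3, with a median response of 2.23 in the authors' deposited table. The tandem genes AT4G15670, AT4G15680 and AT4G15690 rose by 9.50 ± 1.19, 9.39 ± 1.19 and 8.71 ± 1.19 from a mock level close to 0, while the salicylate-inducible member GRX480 fell by 1.55 ± 0.12 in the authors' deposited table. The tandem copies are alike, so reads between them are uncertain. The test of the difference called 0 glutaredoxins, and 5 had an unadjusted p under 0.05. The secreted peptide genes CLE4 and CLE2 rose by 7.56 ± 1.22 and 7.36 ± 0.86 in hbi-q per the authors' deposited table, at base means of 16.8 and 72.8. Both folds are from mock levels close to 0. CLE2 rose by 4.51 ± 0.40 in wild type, and its called difference of 2.85 ± 0.95 (adjusted p = 0.0486) did not pass with the robust SD.

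Cytokinin carries the nitrogen signal between root and shoot. Of 41 cytokinin genes 23 rose and 3 fell in hbi-q, with a median response of 1.2 in the authors' deposited table. The hydroxylase genes CYP735A2 and CYP735A1, which make trans-zeatin, rose 28.5-fold and 5.83-fold, the synthesis gene IPT3 22.9-fold and the root exporter gene ABCG14 4.05-fold in the authors' deposited table. Type-A response regulators, which damp cytokinin signalling, followed, with ARR15, ARR7 and ARR6 at 3.42 ± 0.24, 3.42 ± 0.09 and 2.34 ± 0.11 in the authors' deposited table. The cytokinin-activating gene LOG5 fell by 2.84 ± 0.21 in hbi-q and also fell by 1.55 ± 0.19 in wild type in the authors' deposited table, a difference of -1.29 ± 0.28 (adjusted p = 3.28e-04). CYP735A2 differed the other way by 0.81 ± 0.16 (adjusted p = 4.81e-05). Altogether 3 cytokinin genes differed above and 2 below 0, beside 2.13% and 3.49% of all genes.

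Genes for making ribosomes rose as a block. All 27 listed nucleolar genes rose in hbi-q, each with a base mean of at least 100, with responses from 1.26 to 2.48 and a median response of 1.76 in the authors' deposited table. FIB2, the fibrillarin of box C/D particles, rose 5.58-fold, the nucleolin gene NUC2 5.25-fold, AT5G27120 of the NOP56 family 4.63-fold and the ribosomal RNA processing gene SWA1 4.6-fold in the authors' deposited table. The median was 1.64 in wild type in the authors' deposited table, and of 27 differences the test called 0, with 1 at an unadjusted p under 0.05.

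Nuclear photosynthesis genes rose in 16 of 50 cases and fell in 0, with a median response of 0.83 in the authors' deposited table. The Rubisco small subunit genes RBCS2B, RBCS1B and RBCS3B rose 7.42-fold, 5.78-fold and 3.16-fold in the authors' deposited table, though these copies are alike and share reads. The light-harvesting gene LHCB1.1 rose 2.43-fold in hbi-q and 5.19-fold in wild type in the authors' deposited table, a difference of -1.09 ± 0.20 (adjusted p = 3.05e-06). The light-harvesting copies LHCB1.5 (-0.60 ± 0.16, adjusted p = 0.00425) and LHCB2.2 (-0.85 ± 0.25, adjusted p = 0.0158) also differed below 0, without being called in either genotype, and these did not pass with the robust SD. Of 7 shoot markers, all of them photosynthesis genes, 4 rose in hbi-q with a median response of 1.17, and of 13 root markers 1 rose and 1 fell with a median response of -0.14, per the authors' deposited table. The part that a change in the share of shoot RNA had in these rises was not tested. Of 23 chlorophyll genes 8 rose and 0 fell, led by the protochlorophyllide oxidoreductase gene PORB (2.08 ± 0.11), the chelatase activator gene GUN4 (1.69 ± 0.17) and the magnesium chelatase gene CHLI1 (1.65 ± 0.08) in the authors' deposited table.

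Genes of sulphur and iron homeostasis included large rises. Of 28 sulphur genes 9 rose and 3 fell with a median response of 0.53, and of 25 iron genes 11 rose and 2 fell with a median response of 0.86, in the authors' deposited table. Of all genes 10.1% rose and 6.06% fell. The sulphate transporter genes SULTR3;5, SULTR1;2 and SULTR1;1 rose by 4.91 ± 0.27, 3.51 ± 0.08 and 3.04 ± 0.21, and the reductase gene APR2 by 1.84 ± 0.07 in the authors' deposited table. NAS1, a synthase of the metal chelator nicotianamine, rose 59.8-fold, and NAS4 rose 11.6-fold in hbi-q against 5.88-fold in wild type in the authors' deposited table. The response of NAS4 was higher in hbi-q by 0.99 ± 0.16 (adjusted p = 1.16e-07). The iron transporter gene IRT1 (0.86 ± 0.58), the ferric reductase gene FRO2 (0.78 ± 0.49) and the uptake regulator gene FIT (0.69 ± 0.14) were not called in hbi-q in the authors' deposited table. F6'H1, a hydroxylase needed to make the coumarin scopoletin, fell by 1.03 ± 0.09 in hbi-q and stood at 0.06 ± 0.09 in wild type in the authors' deposited table, a difference of -1.09 ± 0.13 (adjusted p = 7.74e-15). Of 26 phosphate genes 1 rose and 7 fell, against 2 and 3 in wild type, in the authors' deposited tables, and 1 differed below and 0 above 0. The galactolipid synthase genes MGD3 and MGD2 fell 5.90-fold and 3.52-fold and the transporter gene PHT1;5 fell 5.09-fold in hbi-q in the authors' deposited table. The phytoglobin genes HB1 and HB2, whose proteins scavenge nitric oxide, rose 24.9-fold and 2.77-fold in the authors' deposited table.

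Some genes for recycling nitrogen fell in hbi-q. Of 18 amino acid catabolism genes 8 fell and 0 rose, with a median response of -0.86 in the authors' deposited table. The threonine aldolase gene THA1 fell 9.62-fold, the branched-chain transaminase gene BCAT2 5.99-fold, the tyrosine breakdown gene HPD 5.64-fold and the proline dehydrogenase gene ERD5 3.91-fold in the authors' deposited table. Of 9 ATG8 genes, whose products coat autophagosomes, 5 fell, with values from -1.52 to -0.40, while 2 fell in wild type in the authors' deposited table. ATG8A, ATG8E and ATG8I fell further in hbi-q than in wild type, with differences of -0.43 ± 0.13 (adjusted p = 0.0239), -0.51 ± 0.15 (adjusted p = 0.0207) and -0.38 ± 0.13 (adjusted p = 0.0465), and none of these passed with the robust SD. Among 9 amino acid transporter genes AAP3 rose by 2.18 ± 0.08 and AAP2, LHT1 and AAP4 fell, at -1.78 ± 0.06, -1.26 ± 0.05 and -1.14 ± 0.06 in the authors' deposited table. LHT1, a root uptake carrier, fell further in hbi-q, with a difference of -0.62 ± 0.07 (adjusted p = 3.37e-15). AAP3 (0.51 ± 0.10, adjusted p = 7.62e-05) and AAP5 (0.32 ± 0.09, adjusted p = 0.0147) differed above 0, AAP5 not with the robust SD. Over all genes 2.13% differed above and 3.49% below 0. The UMAMIT family of amino acid exporters split, with 6 of 42 higher and 8 lower, beside 10.1% and 6.06% of all genes. Responses ran from UMAMIT35 and UMAMIT36 (6.93 ± 0.32) down to UMAMIT20 (-1.92 ± 0.11) in the authors' deposited table.

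Most flavonoid and anthocyanin genes fell with nitrate, and the responses of 12 of them were higher in hbi-q than in wild type. Of 26 genes 17 fell and 0 rose in hbi-q, with a median response of -1.35, while 22 fell in wild type with a median response of -1.92, in the authors' deposited tables. The regulator MYB75 fell 5.19-fold, the flavonoid hydroxylase gene F3'H 3.98-fold, the chalcone synthase gene CHS 3.11-fold and the dihydroflavonol reductase gene DFR 3.15-fold in hbi-q in the authors' deposited table. The difference was called above 0 for 12 members and below 0 for 0, beside 2.13% and 3.49% of all genes, and for 7 with the robust SD. It was 0.94 ± 0.16 (adjusted p = 2.54e-07) for the bHLH regulator TT8, 0.98 ± 0.22 (adjusted p = 4.76e-04) for the flavonol regulator MYB11 and 0.66 ± 0.14 (adjusted p = 1.35e-04) for F3'H. Suberin and endodermis genes fell in 6 of 23 cases and rose in 0, the lowest being the Casparian strip gene CASP5 (-3.04 ± 0.30) and the fatty acyl reductase gene FAR4 (-2.09 ± 0.11) in the authors' deposited table. Of 9 root triterpene genes 4 fell and 1 rose in the authors' deposited table. The marneral synthase gene MRN1 fell 9.26-fold in hbi-q and 55.5-fold in wild type in the authors' deposited table, a difference of 2.58 ± 0.36 (adjusted p = 3.48e-10), whereas its cluster neighbours CYP705A12 (0.49 ± 0.17, adjusted p = 0.0690) and CYP71A16 (0.32 ± 0.15, adjusted p = 0.225) did not pass. BARS1, a baruol synthase gene, rose by 1.77 ± 0.31 in wild type and stood at -0.91 ± 0.27 in hbi-q in the authors' deposited tables. Its difference was -2.68 ± 0.41 (adjusted p = 9.92e-09). THAS1 (0.86 ± 0.14, adjusted p = 1.52e-07) and PEN1 (0.84 ± 0.17, adjusted p = 5.43e-05) differed above 0. So did THAH1 (0.31 ± 0.10, adjusted p = 0.0221), which did not pass with the robust SD.

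**Figure D2:**
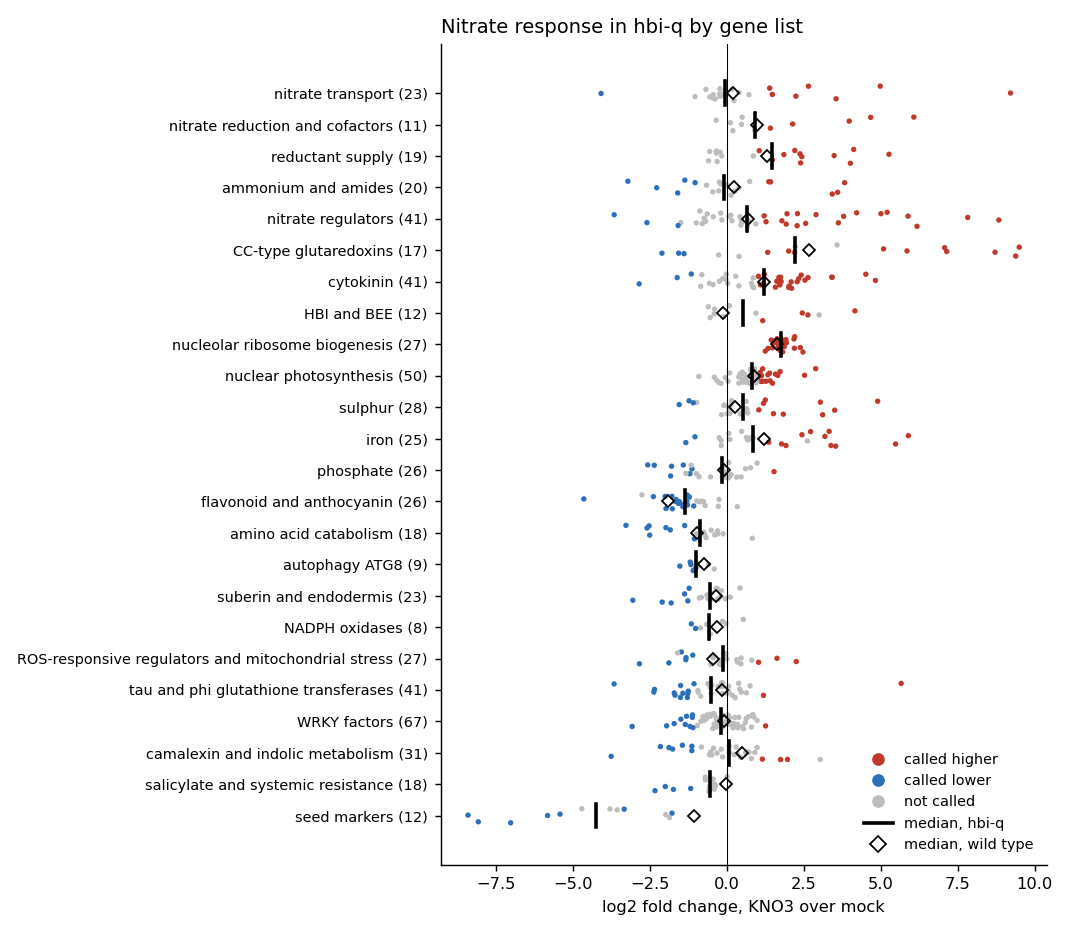
Log2 fold changes of KNO3 over mock in hbi-q for the members of 24 gene lists, with the number of listed genes in parentheses. Black bars mark hbi-q medians and open diamonds wild-type medians, and all 27 nucleolar genes lie to the right of 0 while all 12 seed markers lie to the left.

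Genes that make, remove or answer reactive oxygen species gave mixed responses. Of 8 NADPH oxidase genes, whose enzymes make superoxide outside the cell, 2 fell and 0 rose in hbi-q, with a median response of -0.58 against -0.32 in wild type in the authors' deposited tables. AT1G19230 fell by 1.14 ± 0.11 in hbi-q and stood at -0.54 ± 0.11 in wild type in the authors' deposited table, and this difference of -0.61 ± 0.16 (adjusted p = 0.00370) did not pass with the robust SD. RBOHD, the oxidase of the immune burst, stood at -0.64 ± 0.06 in hbi-q and -0.66 ± 0.06 in wild type in the authors' deposited table. Of 42 scavenging genes 5 rose and 1 fell, beside 10.1% and 6.06% of all genes, with a median response of 0.03 in the authors' deposited table. The monodehydroascorbate reductase gene MDAR6 rose 10.7-fold and the plastid superoxide dismutase gene FSD3 3.18-fold in the authors' deposited table. Among 27 redox-responsive regulators and mitochondrial stress genes 3 rose and 6 fell, among the latter the alternative oxidase genes AOX1A (-1.47 ± 0.07) and AOX1D (-1.87 ± 0.27), while the alternative oxidase gene AOX1C rose (2.26 ± 0.39), in the authors' deposited table. The NAC gene JUB1, which is induced by hydrogen peroxide and delays senescence, fell 7.10-fold in hbi-q and 2.29-fold in wild type in the authors' deposited table. ERF105 and ERF104, ethylene response factor genes, differed the other way by 1.19 ± 0.25 (adjusted p = 1.16e-04) and 0.55 ± 0.12 (adjusted p = 3.58e-04), and neither was called in hbi-q or in wild type.

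Tau and phi glutathione transferases, which conjugate glutathione to stress products and secondary metabolites, fell in 12 of 41 cases and rose in 2, beside 6.06% and 10.1% of all genes. Of the 41, 33 had a base mean of at least 100, and the median response was -0.50 in the authors' deposited table. GSTF14 rose 50.8-fold in hbi-q and 42.8-fold in wild type in the authors' deposited table. The anthocyanin-linked GSTF12 fell by 1.42 ± 0.10 in hbi-q and further in wild type (-1.94 ± 0.10) in the authors' deposited table. GSTF7 (-0.90 ± 0.13, adjusted p = 2.77e-10) and GSTU21 (-1.45 ± 0.24, adjusted p = 1.2e-07) differed below 0 without being called in either genotype. Altogether 9 of these genes differed below 0, 7 of them with the robust SD, and 2 above, 0 with the robust SD. Over all genes 3.49% differed below and 2.13% above 0. Class III peroxidases, secreted enzymes that use hydrogen peroxide in the wall, rose in 5 of 65 cases and fell in 6, shares close to those of all genes, in the authors' deposited table. Their responses differed from wild type below 0 for 12 and above 0 for 5, beside 3.49% and 2.13% of all genes, and with the robust SD for 9 and 2. PER4 fell by 1.49 ± 0.18 in hbi-q and stood at 0.82 ± 0.18 in wild type, PRX52 stood at -0.16 ± 0.14 and rose by 1.74 ± 0.14 in wild type, and AT3G03670 rose by 1.06 ± 0.12 and 2.73 ± 0.12 in hbi-q and wild type in the authors' deposited tables. These 3 differences were -2.32 ± 0.25 (adjusted p = 4.33e-17), -1.90 ± 0.20 (adjusted p = 5.67e-19) and -1.67 ± 0.17 (adjusted p = 7.07e-20).

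Some genes of inducible indolic defence compounds were among those with the lowest test scores of the difference. CYP71A12, a cytochrome P450 that acts on indole-3-acetaldoxime on the way to camalexin and indole carbonyl nitriles, had a base mean of 1302. It fell 2.19-fold with nitrate in hbi-q (adjusted p = 1.43e-35) and rose 7.05-fold in wild type (adjusted p = 8.95e-121) in the authors' deposited tables. The difference of the responses was -3.95 ± 0.15 on the log2 scale (adjusted p = 8.86e-150). AT1G26380, AT1G26390 and AT1G26410, neighbouring genes of the berberine bridge enzyme family, also turned from a rise in wild type to a fall in hbi-q. AT1G26380, an oxidase gene of the indole carbonyl nitrile pathway, fell by 1.13 ± 0.11 in hbi-q and rose by 2.23 ± 0.13 in wild type in the authors' deposited tables, and its difference was -3.35 ± 0.17 (adjusted p = 1.39e-79). AT1G26390 fell by 2.15 ± 0.17 against a rise of 2.95 ± 0.29, and AT1G26410 fell by 1.75 ± 0.19 against a rise of 3.28 ± 0.34 in the authors' deposited tables, while AT1G26400, which lies among them, had a base mean of 0.725 and was called in neither genotype, and AT1G26420 stood at -0.13 ± 0.11 against a rise of 1.81 ± 0.12. These neighbours are related in sequence, and the sources used here do not say how shared reads were counted. CYP81F2, which hydroxylates indole glucosinolates for wall defence, stood at -0.42 ± 0.08 in hbi-q and rose by 1.63 ± 0.10 in wild type in the authors' deposited tables. CYP82C2, which acts on the same indole carbonyl nitrile route, rose by 1.98 ± 0.20 in hbi-q and 7.24 ± 1.2 in wild type in the authors' deposited tables, with a difference of -5.27 ± 1.22 (adjusted p = 7.46e-04). The size of its wild-type fold rests on the fit because the gene is close to 0 in wild-type mock. Of 31 listed genes 3 rose and 7 fell in hbi-q, against 9 and 2 in wild type, in the authors' deposited tables. Over all genes 10.1% rose and 6.06% fell in hbi-q, against 9.44% and 5.51% in wild type. The difference was below 0 for 11 of the 31, 8 of them with the robust SD, and above 0 for 1, CYP81F3, which did not pass with the robust SD. Over all genes 3.49% differed below and 2.13% above 0. CYP79B3, which makes the shared precursor indole-3-acetaldoxime, rose by 1.75 ± 0.06 in hbi-q and 1.76 ± 0.06 in wild type in the authors' deposited tables, and no difference was called for it. The differences of the camalexin genes PAD3 (-0.39 ± 0.14, adjusted p = 0.0876) and CYP71A13 (-0.59 ± 0.52, adjusted p = 0.662) did not pass. Nor did those of the listed members IGMT1, MYB34, MYB51 and MYB122.

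Responses of salicylate and systemic resistance genes were lower in hbi-q than in wild type for 11 of 18 genes, beside 3.49% of all genes. Of 18 genes, all with a base mean of at least 100, 4 fell and 0 rose, with a median response of -0.53 against -0.01 in wild type, where 0 were called in either direction, in the authors' deposited tables. FMO1, which makes the mobile signal N-hydroxypipecolic acid, fell 5.01-fold, ALD1, at the start of the same route, 3.31-fold, and CBP60G, a transcription factor of salicylate synthesis, 3.97-fold by the authors' deposited table for hbi-q. In wild type FMO1 stood at -0.83 ± 0.09, ALD1 at -0.01 ± 0.17 and CBP60G at -0.51 ± 0.09 in the authors' deposited table. The differences were -1.49 ± 0.14 (adjusted p = 2.45e-25) for FMO1, -1.71 ± 0.24 (adjusted p = 5.82e-10) for ALD1 and -1.48 ± 0.13 (adjusted p = 1.68e-28) for CBP60G. All 18 differences of the list lay below 0, and 11 passed the test, 7 of them with the robust SD. WRKY factors, many of them immune regulators, fell in 10 of 67 cases and rose in 1 in the authors' deposited table, beside 6.06% and 10.1% of all genes. WRKY75, WRKY45 and WRKY31 fell, at -1.95 ± 0.22, -1.70 ± 0.17 and -1.48 ± 0.17 in the authors' deposited table. WRKY54 (-0.86 ± 0.11, adjusted p = 8.5e-12), WRKY51 (-0.90 ± 0.17, adjusted p = 1.82e-05) and WRKY59 (-1.03 ± 0.21, adjusted p = 5.73e-05) differed below 0, and WRKY23 differed above 0 by 0.96 ± 0.18 (adjusted p = 5.23e-06). Altogether 10 WRKY genes differed below and 4 above 0, beside 3.49% and 2.13% of all genes. With the robust SD these WRKY counts became 3 and 2.

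The promoters of genes that carried these differences are shown so that their transcription factor motifs can be read beside the responses. Each sequence is the 250 bases before the annotated start in RefSeq's TAIR10.1, written 5′ to 3′ on the gene's strand, and capitals mark the W-box core TTGAC or its reverse complement GTCAA, the site of WRKY factors, and TGACG, a site of TGA factors. CYP71A12 (chr2:13101372-13101621, minus strand), AT1G26380 (chr1:9128569-9128818, minus strand), CYP81F2 (chr5:23187590-23187839, plus strand) and BPE (chr1:21911290-21911539, minus strand) stand for indolic defence and the HBI family, NRT2.1 (chr1:2523773-2524022, plus strand) for nitrate uptake, and AT5G65980 (chr5:26392086-26392335, plus strand), among the lowest scores of the difference, for a promoter with no W-box core.
CYP71A12: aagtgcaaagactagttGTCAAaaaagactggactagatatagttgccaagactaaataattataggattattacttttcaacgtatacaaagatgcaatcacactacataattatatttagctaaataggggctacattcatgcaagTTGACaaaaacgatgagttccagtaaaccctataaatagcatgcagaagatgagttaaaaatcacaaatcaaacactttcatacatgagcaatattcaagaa
AT1G26380: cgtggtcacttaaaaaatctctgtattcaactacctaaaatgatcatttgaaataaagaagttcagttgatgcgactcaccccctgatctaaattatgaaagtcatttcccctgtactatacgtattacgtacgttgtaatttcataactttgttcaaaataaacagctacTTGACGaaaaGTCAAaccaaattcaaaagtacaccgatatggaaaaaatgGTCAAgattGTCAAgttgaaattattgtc
CYP81F2: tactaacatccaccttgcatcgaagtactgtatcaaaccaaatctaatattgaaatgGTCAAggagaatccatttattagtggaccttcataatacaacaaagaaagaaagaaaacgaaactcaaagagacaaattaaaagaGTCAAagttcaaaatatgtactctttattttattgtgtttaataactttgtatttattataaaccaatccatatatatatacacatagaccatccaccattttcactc
BPE: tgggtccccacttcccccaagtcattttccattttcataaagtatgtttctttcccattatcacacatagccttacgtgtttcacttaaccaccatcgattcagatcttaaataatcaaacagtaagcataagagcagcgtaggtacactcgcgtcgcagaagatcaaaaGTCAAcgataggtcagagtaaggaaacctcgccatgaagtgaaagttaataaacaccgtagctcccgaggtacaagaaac
NRT2.1: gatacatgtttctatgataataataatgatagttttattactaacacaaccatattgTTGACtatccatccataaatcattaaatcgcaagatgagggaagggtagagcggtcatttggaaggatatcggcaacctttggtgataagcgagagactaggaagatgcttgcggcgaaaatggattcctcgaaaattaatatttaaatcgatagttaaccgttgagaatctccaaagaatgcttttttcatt
AT5G65980: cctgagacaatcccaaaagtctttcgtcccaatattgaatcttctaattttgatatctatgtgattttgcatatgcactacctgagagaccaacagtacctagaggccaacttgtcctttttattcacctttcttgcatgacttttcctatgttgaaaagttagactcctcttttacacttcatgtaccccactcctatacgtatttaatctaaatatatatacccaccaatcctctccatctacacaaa
In these windows CYP71A12 held 2 W-box cores, AT1G26380 4, CYP81F2 2, BPE 1, NRT2.1 1 and AT5G65980 0, counted on both strands. The promoters of AT1G26390 and AT1G26240, read in the same way, held 1 each. AT1G26380 also held 1 TGACG site, which overlaps a W-box core. The letters CANNTG, the E-box of bHLH factors, occurred 2 times in AT1G26380, 1 time each in NRT2.1 and AT5G65980 and 0 times in CYP71A12, CYP81F2 and BPE, and are left in lower case. None of the 6 windows held CACGTG, the G-box that bHLH and bZIP factors bind, or GACCCTT, part of the nitrate-responsive element. Over all 22914 promoters of this length 45.3% held a W-box core, 56.4% an E-box, 19.2% TGACG, 7.17% a G-box and 1.1% GACCCTT. The W-box core stood in 67.5% of the 206 promoters of genes whose response was at least 2-fold lower in hbi-q, in 60.6% of the 66 with at least 2-fold higher responses, and in 41.6% of the 2311 promoters of genes that rose and 48.8% of the 1388 of genes that fell. The G-box stood in 11.5% of promoters of genes that fell in hbi-q and in 4.93% of those that rose. These shares are descriptions, a match is not a bound site, and tandem copies share promoter sequence.

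Over all genes, the response differed between hbi-q and wild type for 488 genes above 0 and 800 below 0, 2.13% and 3.49%. With at least a 2-fold difference the counts were 66 and 207. Most genes called in hbi-q were called the same way in wild type, 1768 of 2313 that rose and 885 of 1390 that fell. Of 545 genes that rose in hbi-q without a call in wild type 80 differed by the test, and of 491 that fell without one 156 did. None rose in hbi-q and fell in wild type, while 14 fell in hbi-q and rose in wild type. The test called a difference for each of the 14. Opposite calls of at least 2-fold in the same data make that outcome nearly certain, so it adds no support. The 14 genes were CYP71A12 and the 3 berberine bridge genes named above, the cupin gene AT5G38910, the defensin-like gene AT1G34047, the CAP family gene AT4G33710, the RING/U-box gene AT3G61390, the leucine-rich repeat kinase gene AT2G14440, the caffeoyl-CoA methyltransferase gene CCOAMT, and AT3G55790, AT3G18250, AT1G63560 and AT1G13490, all 14 listed after their values were seen. Base means lay under 100 for 9 of the 14, and for AT5G38910 the authors' deposited tables gave -2.74 ± 0.35 in hbi-q and 5.29 ± 1.07 in wild type.

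**Figure D3:**
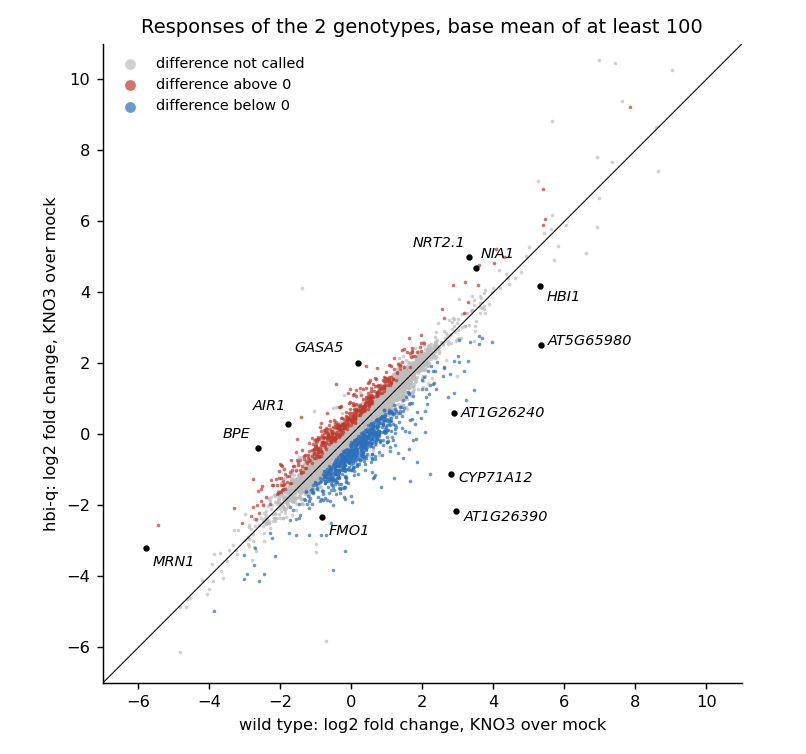
Log2 fold change of KNO3 over mock in hbi-q against that in wild type for genes with a base mean of at least 100, with the line of equal responses. Red and blue points are genes whose difference was called above or below 0, black points are named genes, and CYP71A12 and AT1G26390 lie on the right but below 0 in hbi-q.

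Among the 10 highest test scores of the difference with at least 2-fold, the genes ranged beyond nitrate assimilation. GASA5, a gibberellin-regulated peptide gene, rose 4.03-fold in hbi-q and stood at 0.20 ± 0.09 in wild type in the authors' deposited tables, with a difference of 1.81 ± 0.14 (adjusted p = 8.28e-35). The wall protein genes EXT12, an extensin, and DOT1, a glycine-rich protein, rose by 1.41 ± 0.14 and 1.27 ± 0.10 in hbi-q and stood at -0.44 ± 0.14 and -0.04 ± 0.10 in wild type in the authors' deposited tables. AIR1, an auxin-induced root gene, and the pectin lyase family gene AT5G14650 fell in wild type, at -1.79 ± 0.17 and -1.43 ± 0.11, and stood at 0.28 ± 0.17 and 0.50 ± 0.12 in hbi-q in the authors' deposited tables. AT2G30670, a Rossmann-fold family gene, rose by 4.78 ± 0.10 in hbi-q and 3.60 ± 0.09 in wild type, and the acyl carrier protein desaturase gene AT3G02620 fell 2.38-fold in hbi-q and 6.87-fold in wild type in the authors' deposited tables. Among the 10 lowest scores, AT5G65980 of the auxin efflux carrier family rose 5.68-fold in hbi-q and 40.6-fold in wild type in the authors' deposited tables, a difference of -2.84 ± 0.18 (adjusted p = 4.2e-53). The extensin-like gene AT1G26240 and the acyltransferase family gene AT5G42830 stood at 0.59 ± 0.10 and 0.06 ± 0.10 in hbi-q and rose by 2.88 ± 0.11 and 2.08 ± 0.11 in wild type in the authors' deposited tables. MLO12, of the family that powdery mildew fungi exploit, fell 2.60-fold in hbi-q and stood at -0.10 ± 0.07 in wild type, and the oxygenase family gene AT4G10500 stood at -0.37 ± 0.08 in hbi-q and rose by 1.08 ± 0.08 in wild type in the authors' deposited tables. The 20 differences kept their call with the robust SD.

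**Figure D4:**
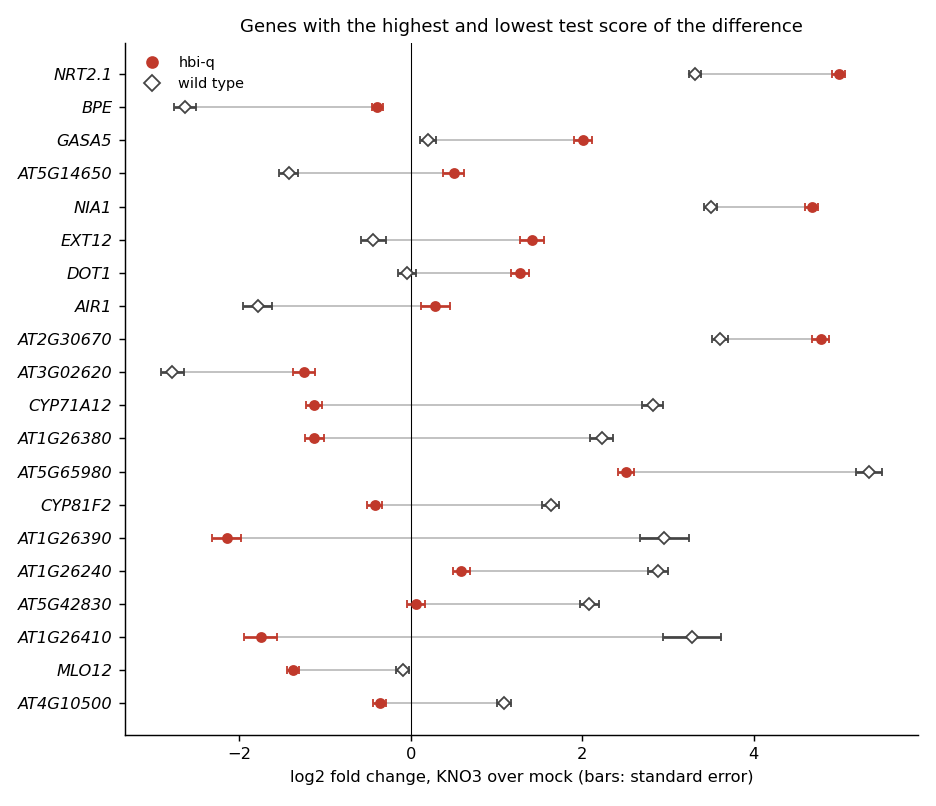
Log2 fold changes of KNO3 over mock, with standard errors, in hbi-q (filled circles) and wild type (open diamonds) for the 10 genes with the highest and the 10 with the lowest test scores among differences of at least 2-fold. CYP71A12, AT1G26380, AT1G26390 and AT1G26410 lie on opposite sides of 0 in the genotypes.

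Genes of other hormones both rose and fell, to be read beside 10.1% and 6.06% of all genes. Of 14 auxin genes 1 rose and 1 fell, 7.14% and 7.14%, namely the synthesis gene TAR2 (2.64 ± 0.10) and the conjugation gene GH3.5 (-1.57 ± 0.07) in the authors' deposited table. Of 17 ethylene genes 3 rose and 4 fell, with the oxidase gene AT2G19590 at 1.60 ± 0.11 and ACO4 at -1.46 ± 0.08 in the authors' deposited table. Of 31 jasmonate genes 4 rose and 2 fell, 12.9% and 6.45%, and LOX2, a lipoxygenase of jasmonate synthesis, rose 5.59-fold in hbi-q and 4.48-fold in wild type in the authors' deposited tables. The gibberellin synthesis gene GA3OX1 rose 4.87-fold in the authors' deposited table. DWF4, the rate-limiting enzyme gene of brassinosteroid synthesis, rose by 1.08 ± 0.07 in hbi-q and stood at 0.69 ± 0.07 in wild type in the authors' deposited tables, a difference of 0.40 ± 0.10 (adjusted p = 0.00142) that did not pass with the robust SD.

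A further deposited table lists genes that 0.5 mM H2O2 for 3 h changed at least 2-fold in wild type, and by the labels it shares no library with the hbi-q response. Of its 1810 genes 1770 were measured in hbi-q. Among 1072 genes that H2O2 raised in wild type, nitrate raised 110 in hbi-q, 10.3%, and lowered 199, 18.6%, beside 10.1% and 6.06% of all genes. Their median response was -0.26 in the authors' deposited table. Among 698 genes that H2O2 lowered, nitrate raised 70 and lowered 92, 10.0% and 13.2%, with a median response of -0.07 in the authors' deposited table. Both groups thus held more falls than all genes did, and the group that H2O2 raised held the larger share.

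A lower response can come from a higher level in mock or a lower one after nitrate, and group levels were therefore estimated. The hbi-q and wild-type tables hold the same base mean for every gene, so the base mean, both fold changes and both standard errors together fix the mean of each group, if the 12 libraries entered 1 fit, had equal size factors and shared 1 dispersion per gene. The estimates carry no standard error and no test, and levels are compared within a gene only. NRT2.1 was estimated at 1888 normalized counts in hbi-q mock and 5246 in wild-type mock, and at 59865 and 52267 after KNO3. NIA1 was estimated at 1018 and 1868 in mock and 26022 and 21089 after KNO3. CYP71A12 was estimated at 2956 in hbi-q mock and 112 in wild-type mock, and at 1351 and 789 after KNO3. CYP82C2 was estimated at 63.4 in hbi-q mock and 0.493 in wild-type mock, and at 250 and 74.6 after KNO3, higher in hbi-q in both treatments. The estimated mock level was also higher in hbi-q by 3.67 on the log2 scale for AT1G26380, 2.80 for CYP81F2, 2.70 for AT5G65980, 1.75 for GSTU10 and 0.81 for FMO1. For FMO1 the order turned after KNO3, to -0.68. BEE2 was estimated at 8.68 in hbi-q mock and 74.4 in wild-type mock, and at 19.6 and 549 after KNO3, lower in hbi-q in both treatments. HBI1 was estimated at 75.4 and 33.7 in mock and at 1355 and 1332 after KNO3, and BEE1 at 67.9 and 61.7 in mock. BPE was estimated at 2059 in hbi-q mock and 374 in wild-type mock, and at 1570 and 60.3 after KNO3, so it stood higher in hbi-q in both. Over 16507 genes with a base mean of at least 100, the estimated mock level was at least 2-fold higher in hbi-q for 110, 0.666%, and lower for 39, 0.236%, while after KNO3 18 were higher, 0.109%, and 47 lower, 0.285%. Of 1174 such genes whose responses differed, the estimated gap between genotypes was wider in mock for 768. These estimates depend on the assumed depths. If the hbi-q libraries had been 0.8 times as deep as those of wild type, the estimated log2 ratio of hbi-q over wild type for NRT2.1 in mock would move from -1.47 to -1.14, and if those of wild type had been 0.8 times as deep as those of hbi-q, to -1.79. The counts in mock would then be 260 higher and 21 lower in the first case and 57 and 116 in the second. Which direction holds more genes in mock thus depends on the assumed depths. After KNO3 the counts would be 55 higher and 18 lower, or 8 and 131, and the gap would be wider in mock for 720 or 623 of the 1174. Under equal size factors the median estimated log2 ratio of hbi-q over wild type was -0.0139 in mock and 0.0119 after KNO3. Those medians cover genes with a base mean of at least 100.

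**Figure D5:**
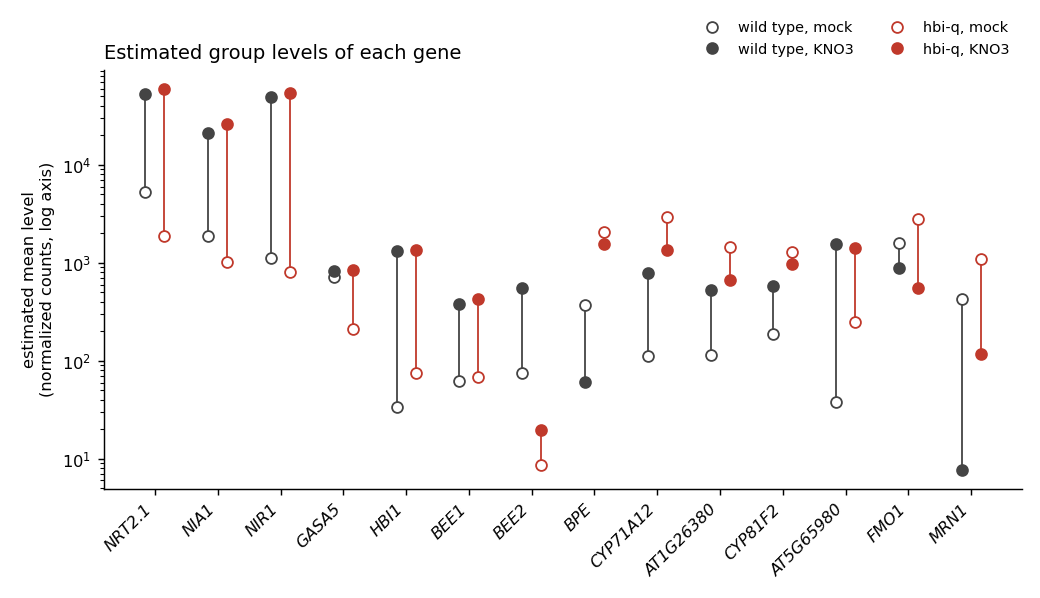
Estimated mean level of 14 genes, in normalized counts on a log axis, in mock (open) and after KNO3 (filled) in wild type (grey) and hbi-q (red), under equal size factors and with no error bars. CYP71A12, AT1G26380 and CYP81F2 differ between genotypes mainly in mock, and BEE2 lies lower in hbi-q in both treatments.

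Markers of seed storage proteins and oil bodies also read lower after KNO3 than in mock in hbi-q, with wide standard errors. Of the 12 listed, all below 0 with a median response of -4.24, 3 had a base mean of at least 100, 7 were called lower in hbi-q and 0 in wild type, and 0 differences between genotypes were called, with 4 at an unadjusted p under 0.05, in the authors' deposited tables. CRU3 stood at -8.39 ± 2.45 in hbi-q and -0.56 ± 2.15 in wild type and OLEO1 at -3.32 ± 1.42 and -1.01 ± 1.30 in the authors' deposited tables, with standard errors many times the median of all genes. Whether single libraries carried these falls, and the part of seed markers in the other falls, was not tested.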

How the data were processed

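Seedling mRNA was sequenced on the BGISEQ-500 platform. Per the labels and the series' design text, reads were mapped by the authors using HISAT and Bowtie2, counted per gene with htseq-count (HTSeq) at default settings and tested in DESeq2. The submitters' processing notes name the build TAIR10 without versions of the tools. The base mean, a signal averaged over libraries, the log2 fold change with its standard error, the Wald score and the p-value and adjusted p-value were used as deposited by the authors, with names per the file headers. Counts of single libraries were not used here, so a planned edgeR test was not run, and intervals or floors that need depth are not given. Gene names came from RefSeq's annotation of TAIR10.1, in which 39 listed IDs had no entry. Whether counting used strand is not given, so antisense partners and near-identical copies are uncertain.

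The difference between responses assumes that the fold changes of the genotypes are independent, and its z score over all genes had a robust SD of 1.295, which served as an alternative scaling. The genes described, the lists and the tests were chosen with earlier results of these data known. Genes were named as the 10 largest rises and falls in hbi-q at a base mean of at least 100, the 10 highest and 10 lowest scores of the difference with at least 2-fold, every HBI and BEE gene, and in each list up to 4 called members per direction and up to 3 differing members. Other members were named for their known role after their values were seen. Group levels were solved per gene from the base mean, fold changes and standard errors shared by both tables, with 3 libraries in each of 4 groups. The solution was tried on data simulated under the same model. That trial cannot test whether the genotypes had equal depth or entered 1 fit. Promoters are the 250 bases before each annotated start. Python 3.11.15, numpy 2.4.6, pandas 2.3.3, scipy 1.17.1, statsmodels 0.14.6 and matplotlib 3.10.9 were used. Alternatives covered the thresholds, low base means, centring, the spread of the test and the assumed depths.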

Additional observations from a re-analysis of the deposited data

Results flagged for a closer look

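Responses to nitrate that differed between hbi-q and wild type by the test of the difference are given here for the genes with the highest and lowest scores at 2-fold or more and for the HBI and BEE genes. Each value is the log2 fold change of KNO3 over mock in hbi-q minus that in wild type. Above 0 were NRT2.1 at 1.67, BPE at 2.239, GASA5 at 1.812, the pectin lyase family gene AT5G14650 at 1.923, NIA1 at 1.179, EXT12 at 1.85, DOT1 at 1.315, AIR1 at 2.069, AT2G30670 at 1.173, AT3G02620 at 1.532 and CIB5 at 0.666. Below 0 were the indolic defence genes CYP71A12 at -3.947, AT1G26380 at -3.353, AT1G26390 at -5.103, AT1G26410 at -5.03 and CYP81F2 at -2.051. Also below 0 were AT5G65980 at -2.839, AT1G26240 at -2.293, AT5G42830 at -2.021, MLO12 at -1.28, AT4G10500 at -1.448, HBI1 at -1.136 and BEE2 at -1.712. All but CIB5 passed with the robust SD as well. Files with values of single libraries were not analysed here, so no library could be looked at on its own.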

How the results depend on the processing

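The 2313 rises and 1390 falls in hbi-q became 6758 and 6624 with no fold threshold, 536 and 271 with at least 4-fold, and 1191 and 598 when tested against a 2-fold change. The differences, 488 above and 800 below 0, became 66 and 207 with at least 2-fold, 138 and 382 with the z score divided by its robust SD, and 247 above 0 at an adjusted p under 0.01. These settings are stricter or looser by construction. The other settings tried for these counts (an adjusted p under 0.01 for the responses and for differences below 0, base means of at least 10 or 100, and centring on the median) kept them within 1.5 times. Of 291 named genes 43 lost a called difference with the robust SD, 66 a called response against a 2-fold change and 1 a called response with centring, and 0 changed direction. Of 94 list counts 3 moved with centring and 58 without a fold threshold. The estimated mock levels were tried at other depths, an alternative chosen after seeing the data, and of 47 estimates 38 moved with hbi-q libraries 0.8 times as deep and 39 with the inverse ratio, as did most counts of estimated levels. No paired analysis was possible because values of single libraries were not analysed here, and leaving out replicates was not run for the same reason. Depth limits the genes with a base mean under 10, whose median standard error was 1.08 in the authors' deposited table.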

Other observations

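Of 32 listed aquaporins, the membrane channels for water and small solutes, 3 rose and 2 fell in hbi-q and 5 rose and 1 fell in wild type, in the authors' deposited tables. The difference was below 0 for 10, 4 of them with the robust SD, and above 0 for 0, beside 3.49% and 2.13% of all genes. The tonoplast channel gene TIP2;2 stood at 0.08 ± 0.12 in hbi-q and rose by 1.12 ± 0.12 in wild type, and the plasma membrane channel gene PIP1A stood at 0.47 ± 0.10 and rose by 1.11 ± 0.10, in the authors' deposited tables. These differences were -1.03 ± 0.17 (adjusted p = 1.88e-07) and -0.64 ± 0.14 (adjusted p = 3.73e-04). Of 30 listed wall enzymes of the XTH family, which cut and rejoin xyloglucan, 8 rose and 2 fell in hbi-q in the authors' deposited table, and 6 differed above and 0 below 0, 2 with the robust SD. Over all genes 10.1% rose, 6.06% fell, 2.13% differed above and 3.49% below 0. XTH20 rose by 2.56 ± 0.08 in hbi-q and 2.04 ± 0.08 in wild type, and the touch gene TCH4 by 2.31 ± 0.10 and 1.57 ± 0.09, in the authors' deposited tables, with differences of 0.52 ± 0.12 (adjusted p = 3.44e-04) and 0.74 ± 0.13 (adjusted p = 1.87e-06).

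Other groups are given here by their called genes. Their counts are to be read beside the 10.1% of all genes that rose and the 6.06% that fell. Of 19 aliphatic glucosinolate genes 5 rose in hbi-q, among them the regulators MYB29 (1.53 ± 0.17) and MYB28 (1.17 ± 0.07), in the authors' deposited table. Of 17 root hair genes 3 rose, the root hair specific gene RHS19 (1.52 ± 0.12) and the expansin genes EXPA7 (1.05 ± 0.11) and EXPA18 (1.04 ± 0.13), in the authors' deposited table. The heat shock list held 2 rises of 18, close to the share of all genes. They were the small heat shock gene AT5G51440 (2.31 ± 0.16) and the heat shock factor gene HSFA2 (1.72 ± 0.20), per the authors' deposited table. The trehalose phosphate synthase family genes TPS9 and TPS5 stood at 1.57 ± 0.10 and -1.25 ± 0.06, both called, in the authors' deposited table. In these 4 lists the test called 0 differences, and unadjusted p-values under 0.05 numbered 4, 4, 3 and 0. Of 18 clock genes the repressor CHE rose (1.05 ± 0.11) and the morning gene CCA1 fell (-1.12 ± 0.28) in hbi-q in the authors' deposited table. The responses of LHY, FKF1, PRR5 and LNK1 differed below 0 from wild type, beside 3.49% of all genes. These differences ran from -1.06 ± 0.34 (adjusted p = 0.0396) for LHY to -0.45 ± 0.15 (adjusted p = 0.0404) for LNK1, and none of them passed with the robust SD.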
